A study of Rattus norvegicus with 18 samples.

Results

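Guanylate-binding proteins (GBPs) and immunity-related GTPases are large GTP-hydrolysing proteins of cell-autonomous immunity, and 7 genes of this kind and their control were followed in rat eye tissue: Gbp1, Gbp2, Gbp4, Gbp5, Igtp, Irgm and the transcription factor Irf1. They were chosen by name, with the difference between aged and young retina already known, so that difference is described below without a test. All 7 had rows among the 32285 genes counted in retina. In RPE/choroid, where 32552 genes were counted, 6 of the 7 could be matched by name, and Gbp1 was not analysed there. Gbp2, Gbp4, Gbp5, Igtp, Irgm and Irf1 were read as ENSRNOG00000031743, ENSRNOG00000028768, ENSRNOG00000032240, ENSRNOG00000027008, ENSRNOG00000031138 and ENSRNOG00000008144.

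Interferons act through JAK kinases and STAT proteins, and the response to interferon gamma in particular reaches sites called GAS. IRF1 is itself induced in that response and acts at a further element, the ISRE, so the GBP and IRG genes are reached by both arms. GBPs coat pathogen vacuoles and bacteria in the cytosol and bring inflammasome caspases to them, and several are anchored to membranes by a lipid added to their C-terminal end. IRG proteins such as IGTP (also named IRGM3) and IRGM act on vacuole and lipid droplet membranes and depend on part of the autophagy machinery for their placement. In the retina, microglia are the resident macrophages, and glia, endothelium and neurons can also respond to interferon.

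RNA-seq libraries came from the retina and from the RPE/choroid, the pigment epithelium dissected with its vascular bed, of Fischer 344 rats. The submitters' protocol describes poly(A) capture for all. In each tissue 3 libraries were from young rats of 4 months, 3 from untreated aged rats of 24 months and 3 from aged rats of 24 months that from 22 months had drunk water with 8-aminoguanine (8-AG), an inhibitor of purine nucleoside phosphorylase, for 8 weeks, at a dose of 5 mg/kg/day. All animals were female and of the Fischer 344 strain, per the study's methods, which name no transgene in these rats. The 3 8-AG retina libraries carry the label total RNA and the other retina libraries polyA RNA, so any effect of that difference cannot be told apart from treatment. In RPE/choroid, young libraries 1 and 2 share a label number, as do aged libraries 1 and 2, marked left and right, and whether each pair is from a single rat is not stated. If libraries share an animal, p-values measure in part the spread between its eyes. The retina libraries held 12283458 to 15644346 counts and the RPE/choroid libraries 28573828 to 48203050. The precision of a low gene is set by its own counts, which are given below for some of the genes where they are few.

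Marker genes of the labelled tissues were present, and some libraries of both tissues stood apart in markers of other tissues. Levels in CPM are counts scaled to the library total as adjusted by edgeR's normalization factors (TMM), and not to the plain total. The summed level of 13 rod photoreceptor markers was 34556 to 59817 CPM in the retina libraries. That of 10 RPE markers was 9415 to 19154 CPM in 8 of the 9 RPE/choroid libraries. In 8-AG RPE/choroid library 1 the RPE sum was 5461 and the rod sum 56368, against rod sums of 904 and 885 in the other 8-AG libraries. The same library had the lowest endothelial sum (675, against 7068 and 4155), the lowest microglia and macrophage sum (465, against 1939 and 1835) and the lowest T and NK cell sum (19.2, against 230 and 210). The rod sum also varied among the other RPE/choroid libraries, from 621 to 19988. The 8-AG differences of the members in RPE/choroid are therefore given with and without that library. In retina the sum of 15 lens markers was 3037, 6772 and 169 CPM in the young libraries, 18.9 to 25 in the aged and 1850, 20.6 and 24.6 in the 8-AG libraries, unevenly between the groups compared.

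**Figure D1:**
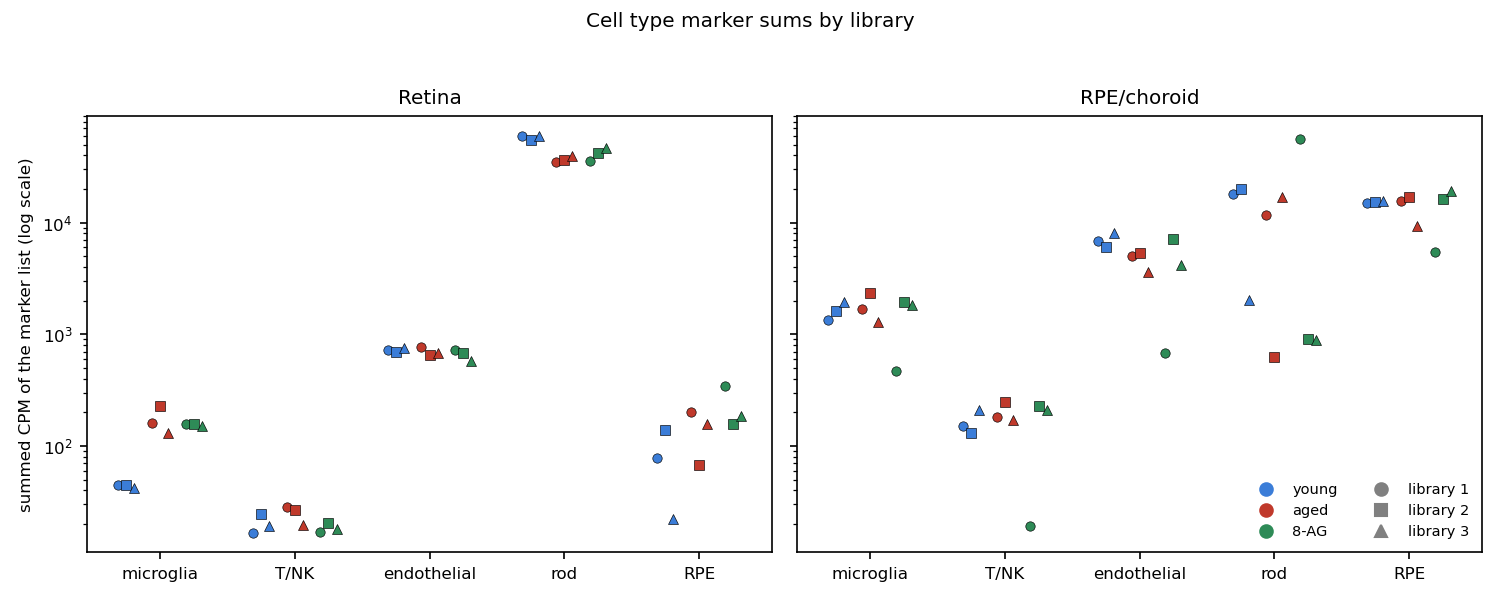
Summed CPM of 5 cell type marker lists in each library on a log axis, by tissue. Colours are groups and shapes are libraries. In retina the 3 young libraries have the lowest microglia sums, 42.1 to 44.9, and in RPE/choroid 8-AG library 1 has the highest rod sum and the lowest sum of the other 4 lists.

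The promoters are shown because they hold the letters through which these genes are classically reached. RefSeq windows on GRCr8, from 250 bases before to 50 after each annotated start, were available for 7 of the 7 members, and Gbp1 has 2 starts. Both strands were searched for the ISRE letters GAAANNGAAA, the GAS letters TTCNNNGAA, which read alike on both strands, and the kappa B letters GGGANTTTCC. The stretches below run up to the base before the start, 5′ to 3′ on the strand of the gene, with matches in capitals. They lie at chr2:234005627-234005726, chr2:233978386-233978485, chr2:233910895-233910998 and, for the downstream start of Gbp1, chr2:234072197-234072436, all on the plus strand, and at chr10:42874923-42875046 (plus), chr10:33742579-33742678 (minus) and chr10:38417783-38417934 (plus).
Gbp2: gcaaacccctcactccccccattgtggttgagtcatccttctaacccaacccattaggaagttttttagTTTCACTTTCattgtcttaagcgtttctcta
Gbp4: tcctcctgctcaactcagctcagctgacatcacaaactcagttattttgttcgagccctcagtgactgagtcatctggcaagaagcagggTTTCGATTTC
Gbp5: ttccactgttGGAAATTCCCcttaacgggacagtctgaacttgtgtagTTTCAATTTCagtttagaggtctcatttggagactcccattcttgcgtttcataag
Gbp1: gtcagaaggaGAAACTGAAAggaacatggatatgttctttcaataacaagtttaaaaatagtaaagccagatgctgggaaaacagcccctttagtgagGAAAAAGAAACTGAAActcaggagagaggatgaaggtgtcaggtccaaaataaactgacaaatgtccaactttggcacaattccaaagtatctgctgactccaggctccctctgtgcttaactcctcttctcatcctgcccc
Igtp: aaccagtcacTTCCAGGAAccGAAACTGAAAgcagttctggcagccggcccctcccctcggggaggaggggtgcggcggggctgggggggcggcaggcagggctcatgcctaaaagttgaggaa
Irgm: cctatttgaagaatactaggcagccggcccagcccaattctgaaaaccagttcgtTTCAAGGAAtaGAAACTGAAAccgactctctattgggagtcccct
Irf1: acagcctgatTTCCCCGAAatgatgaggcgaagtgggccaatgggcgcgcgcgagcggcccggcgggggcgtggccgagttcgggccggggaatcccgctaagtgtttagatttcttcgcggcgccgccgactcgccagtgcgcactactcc

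ISRE letters were present in 6 of the 7 members, all but Irf1, against 3.92% of the 33469 windows of the table. GAS letters were present in 3 of the 7, Igtp, Irgm and Irf1, against 8.87% of all windows. Kappa B letters were present in 1, Gbp5, at 94 bases before the start and again after it, against 0.362% of all windows. Igtp and Irgm share an arrangement, in which 2 bases separate the GAS letters from the ISRE letters that follow them on the strand of the gene. Irgm2, the neighbour of Igtp, holds this arrangement too, also with 2 bases between. Their ISRE matches are the same 10 letters, GAAACTGAAA, which also occur in 2 of the 3 matches of Gbp1, 2 of which overlap. In Gbp2, Gbp4 and Gbp5 the ISRE letters lie on the opposite strand, within 56 bases of the start. The upstream start of Gbp1 holds none of the 3 motifs. A match is a description of letters and not evidence that a factor was bound there. On the same assembly Gbp5, Gbp7, Gbp4, Gbp2 and Gbp1 follow each other in 1 cluster on chromosome 2, and Igtp, Irgm and Irf1 are on chromosome 10, with Igtp directly beside Irgm2. Reads of such close relatives can be divided between copies by the counting program, so the level of a single GBP or of Igtp is uncertain to that extent.

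The comparison of aged with young retina asks how these genes stand after natural aging. All 6 members that could be tested were higher in the aged retina, with log2 fold changes from 0.80 for Irf1 to 3.91 for Gbp2, and in each of the 6 no aged library fell within the young range. This is the pattern for which the genes were chosen and is given as a description. Over all 14588 genes tested, 7.29% passed an adjusted p under 0.05 in the higher direction and 7.26% in the lower with edgeR's quasi-likelihood F-test, and 18.1% were higher without overlap.

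Gbp2, a prenylated GBP, was measured in the young retina at 2, 1.81 and 1.96 CPM and in the aged retina at 20.3, 39.4 and 27.3 CPM. Young libraries lay close together while aged library 2 stood above the other aged libraries. The log2 difference was 3.91 (SE 0.29), a 15-fold higher level. Gbp5, a GBP linked to inflammasome assembly, was at 0.694, 0.753 and 0.878 CPM in young and at 4.92, 7.53 and 6.98 CPM in aged retina. All aged libraries were above all young ones by a wide margin, with a log2 difference of 3.05 (SE 0.26), or 8.26-fold. Gbp4 was barely seen in the young libraries, which held 0, 2 and 2 counts, and had 12, 20 and 18 counts in the aged libraries. Its log2 difference of 3.46 (SE 0.58) rests on those few counts. Gbp1 had no read in the 3 young libraries and 1, 4 and 2 reads in the aged ones, as recovered from the authors' normalized table. Taking the aged reads as exact, this is 2.41-fold higher than a floor of 3 counts over the young group. So few aged reads are themselves uncertain, so the value is no lower bound, and no model was fitted.

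Of the IRG genes, Igtp was at 3.54, 3.69 and 2.64 CPM in young and at 10.6, 14.2 and 14.7 CPM in aged retina. Irgm was at 2.39, 2.56 and 1.22 CPM in young and at 9.44, 9.06 and 12.6 CPM in aged retina. Both were several times higher in every aged library than in any young library, with log2 differences of 2.0 (SE 0.19) for Igtp and 2.34 (SE 0.26) for Irgm. Irf1, the transcription factor, was at 7.78, 8.58 and 8.31 CPM in young and at 14.0, 16.1 and 12.9 CPM in aged retina. Its groups were also apart, with the smallest difference of the members, 0.80 (SE 0.12) on the log2 scale or 1.74-fold. Without young library 2, which held the highest lens sum, the log2 differences were 3.87 for Gbp2, 3.86 for Gbp4, 3.02 for Gbp5, 2.09 for Igtp, 2.53 for Irgm and 0.83 for Irf1. Leaving out each library in turn moved the log2 difference of Gbp2 between 3.62 and 4.11, of Gbp4 between 2.95 and 3.86 and of Irf1 between 0.70 and 0.87. The GTPases spanned 4.01-fold to 15-fold.

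**Figure D2:**
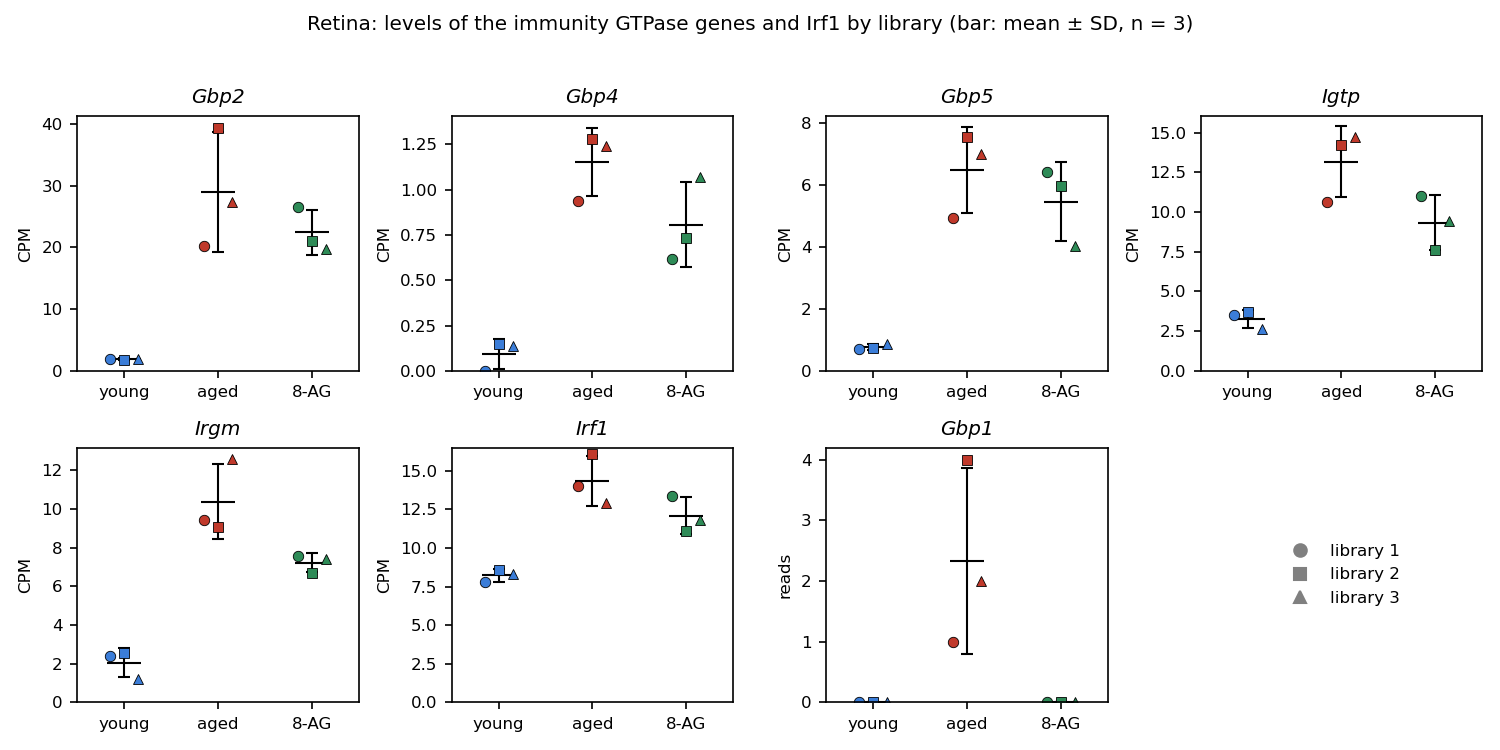
Level in each retina library of 6 members in CPM and of Gbp1 in reads, by group, with linear axes from 0. Shapes are libraries and bars are the mean and SD of 3 libraries. Young libraries lie below all aged and all 8-AG libraries for the 6 members in CPM, and Gbp1 has reads in the 3 aged libraries only.

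Microglia and macrophage markers were higher in aged and in 8-AG than in young retina. The sum of 13 microglia and macrophage markers was 43.8 ± 1.52 CPM in young retina (SD, n = 3), 173 ± 50 in aged and 155 ± 4.02 in 8-AG retina, with none of the 13 at 0 in any group. By library the aged microglia sums were 162, 228 and 130 CPM. Aged library 2 also held the highest level of 4 members, Gbp2, Gbp4, Gbp5 and Irf1, while Igtp and Irgm were highest in aged library 3. The microglia sum was lowest in aged library 3, whereas aged library 1 was the lowest for 4 of the 6 members. The sum of 10 T and NK cell markers ranged from 16.8 to 24.6 CPM in young, 19.7 to 28.7 in aged and 17.1 to 20.3 in 8-AG retina. Most of it was Klrd1, at 15.8 to 23.9 CPM in young, 14.4 to 27.1 in aged and 15.1 to 16.1 in 8-AG retina. Of the 10 genes 5 had no count in any young retina library, Cd3d, Cd3g, Cd8a, Nkg7 and Gzmb. All 10 had a count in at least 1 aged library, where Gzmb reached 4.08 CPM, Nkg7 1.15 and Cd3g 0.207, and Cd3d alone had none in 8-AG retina. The sum of 5 B cell markers was 0.678 to 1.31 CPM in young and 0.51 to 1.01 in aged retina, and that of 6 neutrophil markers 1.66 to 1.93 and 1.31 to 2.68. The sum of 4 erythroid markers was 23.7 to 41.8 CPM in young, 77.1, 368 and 84.9 in aged and 53.1 to 128 in 8-AG retina, so that it too was higher in aged retina and highest in aged library 2. The sum of 9 endothelial markers was 689 to 756 CPM in young and 659 to 771 in aged retina, and that of 7 Müller glia and astrocyte markers 3817 to 3977 and 3457 to 3665. Single genes moved within these sums. With age 8 of the 9 endothelial markers had a log2 difference above 0, with a median of 0.57, and 1 was called higher. Of the 7 Müller glia and astrocyte markers 2 were called higher and 2 lower, with log2 differences from -0.42 to 3.52. The rod sum was 54957 to 59817 CPM in young, 34556 to 39220 in aged and 35463 to 46480 in 8-AG retina. RPE markers moved with the groups too, their sum in retina being 78.4, 139 and 22.1 CPM in the young libraries, 201, 67 and 159 in the aged and 342, 156 and 184 in the 8-AG libraries. Every 8-AG library was above every young one, and the aged libraries overlapped both groups. Of the 9 RPE markers tested in 8-AG against young retina 9 had a log2 difference above 0, with a median of 1.62, and 0 were called. In bulk tissue more cells of a type cannot be told apart from more RNA per cell. The part of the microglial, T and NK cell, erythroid, endothelial, Müller glial, RPE, rod and lens differences in the member levels was not tested.

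The comparison of 8-AG-treated with untreated aged retina asks whether treatment moved these genes. It shares the 3 aged libraries with the comparison above. No member passed the adjusted threshold with edgeR (0 of 6), where 0.0205% of the 14631 genes tested passed it in the higher direction and 0% in the lower. DESeq2 also called none of the 6. At an unadjusted P under 0.05 the count was 2 of 6, Igtp and Irgm, beside 537 of all genes tested. All 6 fitted log2 differences were below 0, from -0.52 to -0.25 with a median of -0.44, where the median of all genes was 0.00. As the members were chosen for being high in these same aged libraries, the sign of their difference is no independent evidence.

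Irgm had the largest of these differences. It was at 7.57, 6.69 and 7.42 CPM in the 8-AG retina, below each of the aged values of 9.44, 9.06 and 12.6 CPM. Its log2 difference was -0.52 (SE 0.16), with an unadjusted P of 0.0099 and an adjusted p of 1 in edgeR, and it was the only member without overlap, a state shared by 3.96% of all genes in the lower direction. Igtp was at 11.0, 7.58 and 9.43 CPM, and 8-AG library 1 lay just inside the aged range. Its log2 difference was -0.50 (SE 0.17), with an unadjusted P of 0.017 and an adjusted p of 1 in edgeR. Gbp2 was at 26.6, 21.1 and 19.7 CPM, overlapping the aged range, with a log2 difference of -0.38 (SE 0.24) that was -0.09 without aged library 2. Gbp5 was at 6.41, 5.95 and 4.01 CPM, with a log2 difference of -0.26 (SE 0.23) that was -0.07 to -0.42 as single libraries were left out. Gbp4 had 8, 9 and 16 counts, overlapping the aged counts, with a log2 difference of -0.50 (SE 0.34). Irf1 was at 13.4, 11.1 and 11.8 CPM, with a log2 difference of -0.25 (SE 0.13). Without 8-AG library 1, which held 1850 CPM of lens markers, the 6 differences ran from -0.63 to -0.32. Gbp1 had no read in the 8-AG libraries. Against the floor of 3 counts the aged retina was 2.26-fold higher, again with its few reads taken as exact, so this is no lower bound.

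The intervals say how large a difference these libraries leave room for. Taking 2 standard errors either side, the log2 difference between 8-AG and aged retina ran from -0.86 to 0.11 for Gbp2, from -0.72 to 0.20 for Gbp5, from -0.85 to -0.20 for Irgm and from -0.51 to 0.02 for Irf1. The intervals of Gbp2, Gbp4, Gbp5 and Irf1 include 0, those of Igtp and Irgm do not, and adjustment over all genes leaves none past the threshold.

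Against the young retina, the 8-AG retina had higher levels of these genes. The young libraries are those with which the members were chosen for being low, so the choice of genes fixes much of this difference, and it is given as a description without a test. In the 5 members that passed edgeR's filter on low counts the groups did not overlap, as for 17.8% of the 14542 genes tested, and over all genes 7.78% passed an adjusted p under 0.05 in the higher direction and 7.1% in the lower. Gbp5, with 9, 10 and 13 counts in the young libraries, passed the filter mainly through the 8-AG libraries, which held 83, 73 and 60. Gbp2 was 11.6-fold higher (log2 3.54, SE 0.16) and Gbp5 6.94-fold higher (log2 2.79, SE 0.27). Irgm was 3.53-fold higher (log2 1.82, SE 0.26) and Igtp 2.84-fold higher (log2 1.5, SE 0.20). Irf1 was 1.47-fold higher (log2 0.56, SE 0.13), under the study's own fold limit of 1.5. Gbp4 fell below the filter, and fitted without it had a log2 difference of 2.94 (SE 0.71).

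**Figure D3:**
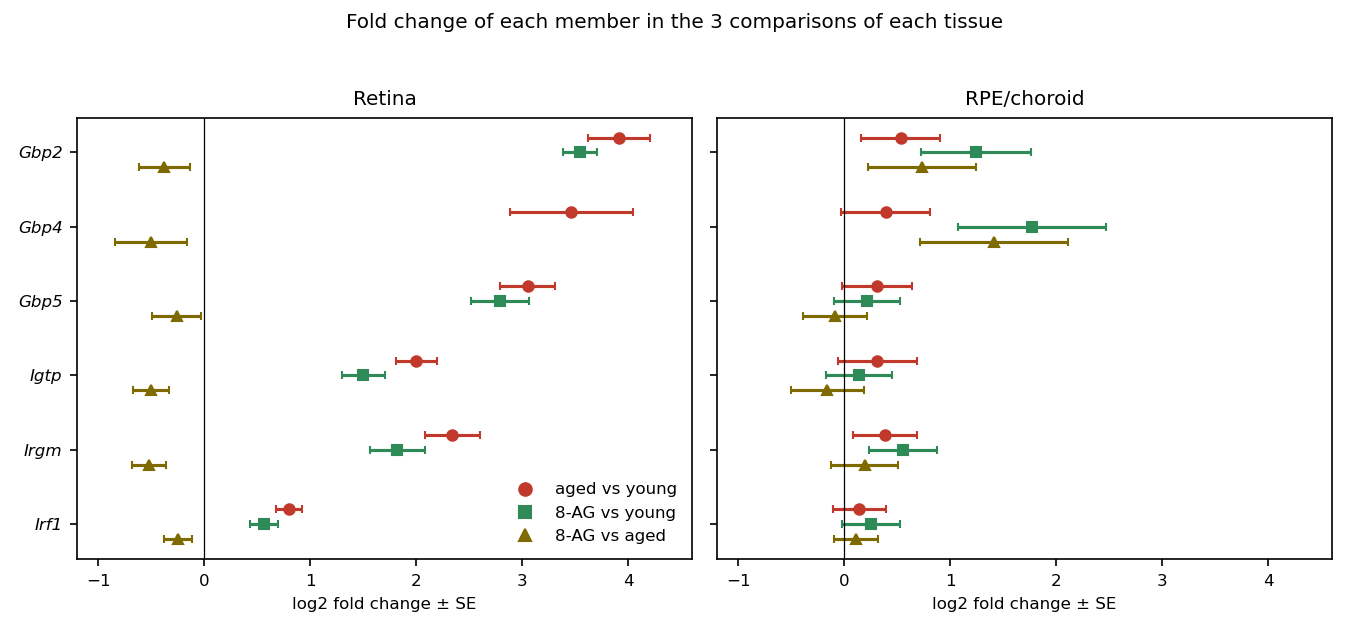
Log2 fold change with its SE for 6 members in the 3 comparisons of retina and of RPE/choroid, on a common axis. In retina the values against young lie from 0.56 to 3.91 and those of 8-AG against aged from -0.52 to -0.25, and in RPE/choroid only Gbp2 and Gbp4 exceed 0.60, in the 8-AG comparisons. Gbp4 has no value for 8-AG against young in retina, where it fell below the filter.

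The genes around the members were read from lists by role, written with earlier results of these data known, so counts of genes that rose are a description. Over all genes tested 7.29% were called higher and 7.26% lower in aged against young retina. In 8-AG against young retina these shares were 7.78% and 7.1%. Ligands were scarce in retina. Ifng and Ifnb1, the genes of interferon gamma and beta, had 0 reads in all 9 libraries, which per group of 3 libraries allows up to 3 reads. Ifna4 had 1 read, in aged retina, Ifnk had 1 and Ifne 4, all in young retina, and Il12b had 0. Tnf had 3 reads in young, 11 in aged and 13 in 8-AG retina. Il18, a cytokine released by inflammasomes that promotes interferon gamma, rose in aged retina, from 0.385, 0.903 and 0.608 to 1.95, 2.36 and 2.07 CPM (log2 1.74, SE 0.34). Its counts were 5, 12 and 9 in young and 25, 37 and 30 in aged libraries. Il18 was at 2.78, 2.36 and 3.01 CPM in 8-AG retina (log2 2.09 against young, SE 0.33). It passed the filter on low counts mainly through the aged and 8-AG libraries, so no p-value is given.

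In aged against young retina the median log2 of receptors and signal carriers was below the 2.7 of the members, though some of them rose more than Irf1. Of 12 receptors, kinases and STATs, 6 rose and 0 fell in aged against young retina, with a median log2 of 0.35. Il10rb, a receptor chain shared by the interferon lambda and IL-10 families, rose by 1.38 (SE 0.26, adjusted p = 0.007), Stat3 by 1.08 (SE 0.12, adjusted p = 0.0012) and Stat2 by 0.48 (SE 0.08, adjusted p = 0.0031), on the log2 scale. Against young, 5 of the 12 rose in 8-AG retina, among them Il10rb (1.45, adjusted p = 0.007), Stat3 (1.0, adjusted p = 0.011) and the interferon gamma receptor chain Ifngr2 (0.42, adjusted p = 0.022).

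Of 8 other interferon regulatory factors, 4 rose and 0 fell with age. These were Irf7 (log2 2.52, SE 0.27), which drives type I interferon genes, Irf5 (2.26, SE 0.34), Irf8 (1.88, SE 0.34), a factor of the macrophage lineage, and Irf9 (1.39, SE 0.11), a factor of the type I interferon response. Their edgeR adjusted p ran from 9.9e-05 to 0.0061. Irf2, a factor that competes with IRF1 for its sites, was at 25.4, 27.7 and 26.8 CPM in young and at 25.5, 28.4 and 26.2 in aged retina and was not called. Irf7, Irf5, Irf8 and Irf9 also rose in 8-AG against young retina, among 7 tested, by 2.04, 1.83, 1.68 and 0.99 on the log2 scale.

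Of 8 negative regulators of the pathway, 3 rose with age and 0 fell. Socs3, a feedback inhibitor of JAK kinases, had the largest difference, at 0.231, 0.527 and 0.473 CPM in young and 5.85, 7.97 and 3.18 in aged retina (log2 3.75, SE 0.43). Its young level was low and it passed the filter on low counts through the aged libraries, so no p-value is given. Usp18, which removes ISG15 and dampens the type I receptor, rose by 2.75 (SE 0.40) and Ptpn6, a phosphatase of blood cells, by 1.6 (SE 0.19). The 8-AG retina held them above young by 3.27, 2.1 and 1.47.

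The other interferon-induced GTPases stood with the members. All 6 that could be tested of 10 in the list rose with age, with a median log2 of 3.18. Mx1, a dynamin-like antiviral protein, rose from 0.308, 0.753 and 0.473 to 10.1, 10.1 and 18.5 CPM (log2 4.63, SE 0.38). Gbp6, a GBP on chromosome 14, rose by 3.97 (SE 0.59), the IRG gene Ifi47 by 3.49 (SE 0.31) and Mx2 by 2.86 (SE 0.47, edgeR adjusted p = 0.022). In the young libraries Mx1 had 4, 10 and 7 counts, Gbp6 8, 4 and 0 and Ifi47 8, 9 and 12. Mx1, Gbp6 and Ifi47 passed the filter on low counts mainly through the aged libraries, so no p-value is given for them. With 8-AG, 5 of 6 rose against young, by 4.04 for Mx1, 3.46 for Gbp6, 3.13 for Ifi47 and 2.05 for Mx2. Against these, 7 tested relatives that are not known as interferon-induced, such as the atlastins and the mitofusin gene Mfn1, which shape membranes, had a median of -0.08. None of the 7 rose and 1 fell, Atl2, by 0.28 (SE 0.07, adjusted p = 0.018). Between 8-AG and young retina Atl1 rose by 0.26 (adjusted p = 0.047) while Mfn1 fell by 0.34 (adjusted p = 0.018) and Atl2 fell by 0.30 (adjusted p = 0.015).

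Of 12 tested interferon gamma target genes outside the GTPases, 11 rose and 1 fell with age, with a median log2 of 1.81. Cxcl10, a chemokine for T cells, rose from 0.308, 0.0753 and 0.203 to 2.19, 3.89 and 7.12 CPM (log2 4.44, SE 0.60). With so low a young level it passed the filter on low counts through the aged libraries, so no p-value is given. Nlrc5, the activator of MHC class I genes, rose by 2.5 (SE 0.34), and the immunoproteasome subunits Psmb9 and Psmb8 by 2.12 (SE 0.30) and 2.08 (SE 0.32). The gene that fell was Ciita, the activator of MHC class II genes, by 0.83. Between 8-AG and young retina 9 rose and 1 fell, with Cxcl10 at 3.93, Cybb at 2.32, Nlrc5 at 2.12 and Fcgr1a at 2.05.

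Genes downstream of or needed by the GTPases were mixed. Of 8 inflammasome and pyroptosis genes, 4 rose with age, with Casp4, the caspase that GBPs bring to bacterial lipopolysaccharide, at 2.05 (SE 0.35, edgeR adjusted p = 0.0042), Casp8 at 1.52 (SE 0.43, adjusted p = 0.041), Pycard at 1.24 (SE 0.34, adjusted p = 0.035) and Nlrp1a at 0.78 (SE 0.20, adjusted p = 0.027) on the log2 scale. Casp4, Pycard and Nlrp1a also rose in 8-AG against young retina, by 1.8, 1.2 and 0.85. None of 8 autophagy genes that help place IRG proteins passed in either comparison, and their log2 differences with age lay between -0.08 and 0.13. The smallest p values among them were those of Map1lc3b (log2 0.13, adjusted p = 0.31) and Atg12 (log2 0.10, adjusted p = 0.35). Of 6 genes for prenylation and CaaX processing, which attach and finish the lipid anchor of GBPs, 0 rose and 1 fell, Icmt, by 0.45 (SE 0.07, adjusted p = 0.0028) with age and by 0.41 in 8-AG against young retina.

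**Figure D4:**
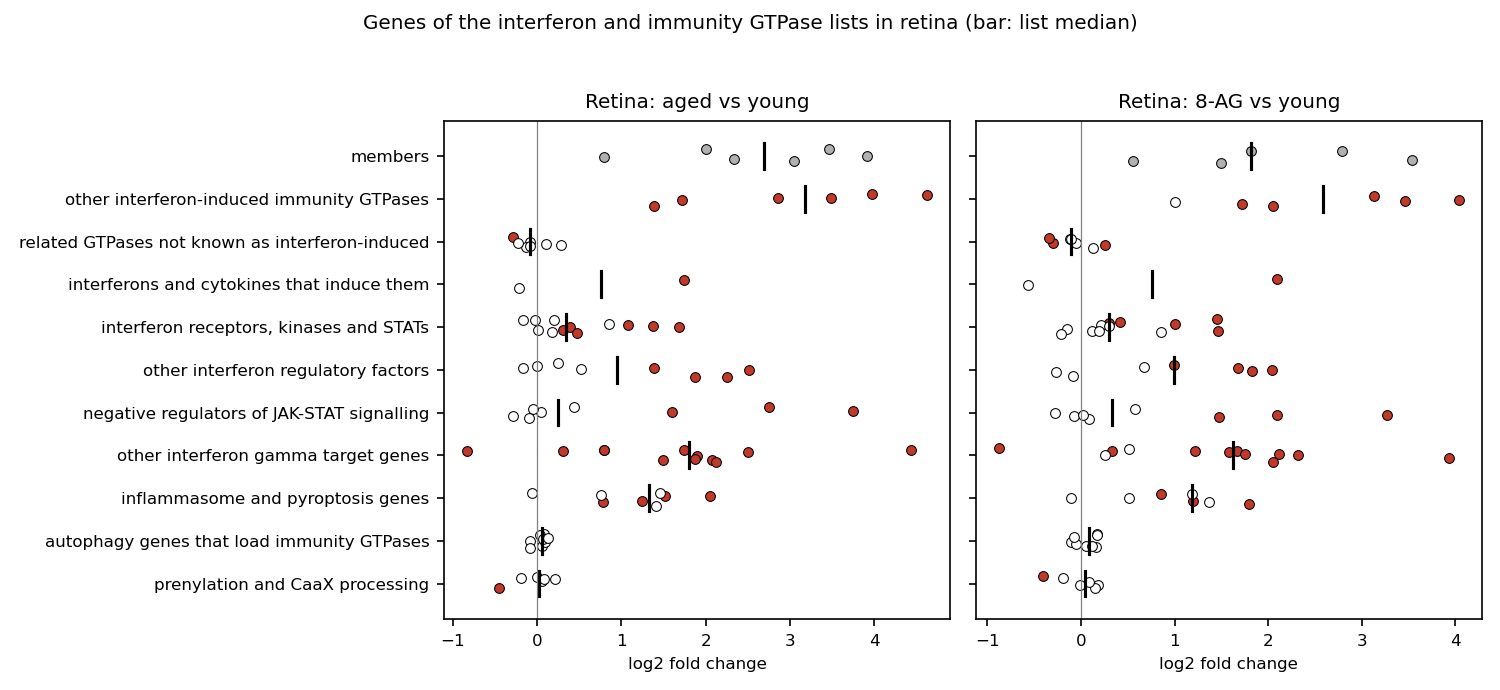
Log2 fold change of each tested gene of the members and of 10 lists by role, in aged against young and 8-AG against young retina, which share the young libraries. Filled red points passed an adjusted p under 0.05, open points did not, grey points are the members, which were chosen with the young and aged libraries, and bars are list medians. The other interferon-induced GTPases have medians of 3.18 and 2.59, and the autophagy genes lie between -0.11 and 0.17.

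In 8-AG against aged retina no gene of the 10 lists passed the adjusted threshold with edgeR. The other interferon-induced GTPases had a median log2 of -0.54, with Gbp6 at -0.50 (SE 0.23) and Mx1 at -0.59 (SE 0.27). Of the interferon regulatory factors Irf9 was at -0.40 (SE 0.11) and Irf7 at -0.48 (SE 0.23), and of the negative regulators Usp18 was at -0.65 (SE 0.31) and Socs3 at -0.48 (SE 0.31). Among targets Cd274 was at -0.54 (SE 0.19) and Cybb at 0.45 (SE 0.21). Adjusted p was 1 for each of these genes. The medians of the receptors and STATs, of the autophagy genes and of the prenylation genes were 0.00, -0.01 and 0.00.

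By pattern over the 9 retina libraries, the genes most like the mean of the 5 members at a mean of at least 1 CPM were Ctsz, Oasl2, Lgals3bp, Apol9a and Uba7. Likeness was the root mean square difference of log2 CPM centred on each gene's own mean, which was 0.17 to 0.22 for these and had a median of 1.06 over 13977 genes. Ctsz encodes a lysosomal protease, Oasl2 and Apol9a are interferon-induced genes, Lgals3bp encodes a secreted glycoprotein and Uba7 the activating enzyme for ISG15. Ctsz was at 2.56 to 3.08 CPM in young, 11.0 to 15.5 in aged and 9.70 to 11.5 in 8-AG retina. Among the members Igtp (0.24) and Irgm (0.27) were nearest their common mean, and Gbp2 (0.71) and Irf1 (0.72) lay furthest from it, since their ranges were the widest and the narrowest.

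In RPE/choroid the members were well above the detection limit in young rats, and no comparison reached the adjusted threshold for any of them. Retina and RPE/choroid were prepared, counted and normalized separately, so levels are not compared between tissues, and whether a difference between groups itself differed between the tissues was not tested. In aged against young RPE/choroid the 6 fitted log2 differences were 0.14 to 0.53, and 0 of 6 were called by edgeR or by DESeq2, or at an unadjusted P under 0.05. No member was without overlap, beside 2.98% of genes that were higher without it. Over the 16047 genes tested 0% were called by edgeR in either direction, 341 had an unadjusted P under 0.05 and DESeq2 called 29.

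Gbp2 was at 51.9, 59.4 and 107 CPM in young and at 148, 88.5 and 78.8 CPM in aged RPE/choroid, and the groups overlapped. Its log2 difference was 0.53 (SE 0.37), with 2 standard errors reaching from -0.22 to 1.27. Igtp was at 94.2, 102 and 172 CPM in young and at 224, 126 and 108 CPM in aged tissue, with a log2 difference of 0.31 (SE 0.37). Irf1 was at 88.6, 107 and 159 CPM and at 125, 154 and 113 CPM, with a log2 difference of 0.14 (SE 0.25). Gbp5 was at 14.1, 24.3 and 25.8 CPM and at 36.3, 20.5 and 22.9 CPM (log2 0.31, SE 0.33), and Irgm at 28.9, 27.6 and 47.4 CPM and at 59.3, 42.0 and 34.5 CPM (log2 0.38, SE 0.30). Gbp4 was the lowest counted of the 6, at 4.37, 2.80 and 6.27 CPM and at 8.26, 5.42 and 3.98 CPM (log2 0.39, SE 0.42).

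Among the young and among the aged libraries most members shared their highest library. Young library 3 was highest for 6 of the 6 members. Aged library 1 was highest for 5 of the 6 and aged library 3 lowest for 5 of the 6. Young library 3 had the lowest young rod sum, 2017 CPM against 17980 and 19988, and the highest young microglia sum, 1950 CPM against 1350 and 1625. In aged RPE/choroid the highest microglia sum, 2332 CPM, was in library 2 and not in library 1, where it was 1698. Between the groups the endothelial sum was 6002 to 8095 CPM in young and 3592 to 5329 in aged RPE/choroid, and the erythroid sum 235 to 3276 and 157 to 220. The part of tissue composition in these differences was not tested. Without aged library 1 the log2 differences with age were 0.18 for Gbp2, 0.05 for Gbp4, 0.002 for Gbp5, 0.12 for Irgm, -0.09 for Igtp and 0.16 for Irf1. With libraries that share a label number summed they were 0.24, 0.12, 0.14, 0.14, 0.03 and -0.05 in the same order.

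**Figure D5:**
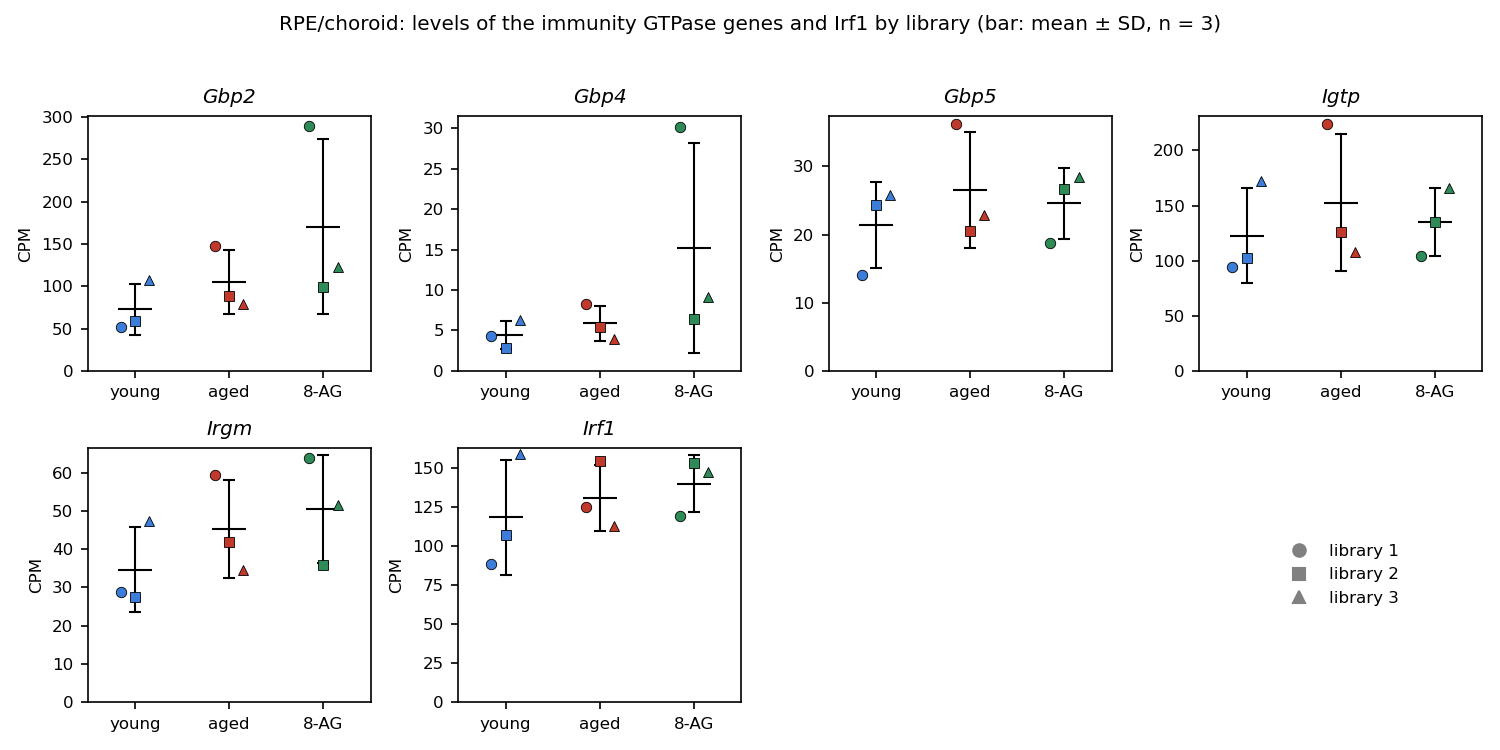
Level in CPM of 6 members in each RPE/choroid library, by group, with linear axes from 0. Shapes are libraries and bars are the mean and SD of 3 libraries. The groups overlap for Gbp2, Gbp5, Igtp, Irgm and Irf1, and 8-AG library 1 is the highest of all 9 for Gbp2 (289), Gbp4 (30.1) and Irgm (63.9).

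In 8-AG against aged RPE/choroid 0 of 6 members were called by edgeR or DESeq2, where edgeR called 0% of 16257 genes in either direction, 274 had an unadjusted P under 0.05 and DESeq2 called 81. The groups overlapped for all 6, and 2.1% of genes were higher without overlap. Gbp4 was at 30.1, 6.36 and 9.15 CPM and Gbp2 at 289, 99.2 and 123 CPM in the 8-AG libraries. For both, library 1 stood far above the other 8-AG libraries. The log2 differences from aged were 1.41 (SE 0.70) for Gbp4 and 0.73 (SE 0.51) for Gbp2, and 0.40 and 0.08 without that library. Irgm was at 63.9, 35.9 and 51.6 CPM (log2 0.19, SE 0.32, and -0.05 without library 1). Gbp5, at 18.7, 26.7 and 28.5 CPM, Igtp, at 104, 135 and 166 CPM, and Irf1, at 119, 153 and 147 CPM, went the other way, with 8-AG library 1 the lowest of the 3. Their log2 differences from aged were -0.09 (SE 0.30), -0.16 (SE 0.34) and 0.11 (SE 0.21), and without library 1 they were 0.05, -0.02 and 0.20.

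The 8-AG library 1 thus split the members by 3 and 3. Its Gbp2, Gbp4 and Irgm were the highest of all 9 RPE/choroid libraries while its sums of microglia, T and NK cell and endothelial markers were the lowest. The other interferon-induced GTPases were divided there as well. Mx1 was the highest of all 9 libraries, at 110 CPM against 13.3 to 36.7 in the other 8. Gbp7, at 10.9 CPM, and Gvin1, at 0.995 CPM, were the lowest of all 9, and Gbp6, at 5.85 CPM, and Ifi47, at 78 CPM, were the lowest of the 3 8-AG libraries. Mx2, at 74.6 CPM, lay between the other 8-AG libraries.

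In 8-AG against young RPE/choroid all 6 log2 differences were above 0 and 0 of 6 were called, where edgeR called 0% of 16215 genes, 341 had an unadjusted P under 0.05 and DESeq2 called 98, no member among them. Gbp4 had a log2 difference of 1.77 (SE 0.70, unadjusted P = 0.049 in edgeR, adjusted p = 1) and was the only member that the study's own limits (1.5-fold, and 0.05 for the unadjusted P) would call, and the only one without overlap. Over all genes 1.71% were called by those limits in the higher direction and 2.82% were higher without overlap. Without 8-AG library 1 the difference of Gbp4 was 0.80 (adjusted p = 0.77). Gbp2 was at 1.24 (SE 0.52) and at 0.62 without that library. Irgm, Irf1, Gbp5 and Igtp were at 0.55 (SE 0.32), 0.25 (SE 0.27), 0.21 (SE 0.31) and 0.14 (SE 0.31), and without 8-AG library 1 they were at 0.34, 0.35, 0.37 and 0.30.

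No gene of the 10 lists passed the adjusted threshold in RPE/choroid with edgeR. With age the other interferon-induced GTPases had a median log2 of 0.21, with Gvin1 at -0.57 (SE 0.21) and Ifi47 at 0.35 (SE 0.24). The 17 targets tested had a median of 0.14, with Ubd, a ubiquitin-like modifier, at 1.45 (SE 0.35) and Cd274 at -0.37 (SE 0.19). In 8-AG against aged tissue Ubd was at -1.44 (SE 0.39), the chemokine Cxcl9 at -0.86 (SE 0.28), Mx2 at 0.81 (SE 0.28), Mx1 at 1.27 (SE 0.61) and Irf7 at 0.79 (SE 0.30). Without 8-AG library 1 these were -1.66 for Ubd, -0.62 for Cxcl9, 0.88 for Mx2, 0.33 for Mx1 and 0.62 for Irf7. In 8-AG against young tissue Cxcl9 was at -0.98 (SE 0.30), or -0.73 without that library. With all libraries adjusted p was 1 for each. The genes of Ifng and Ifnb1 were not analysed in RPE/choroid, where they could not be matched by name.

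By the same measure of likeness over the 9 RPE/choroid libraries, Mapkbp1, Kalrn, Tp53i3, Fam214b and LOC100363782 were nearest the mean of the 6 members, at 0.19 to 0.23, where the median of 14533 genes was 0.59. Irgm was nearer than any of them, at 0.10, and Gbp4 lay furthest among the members, at 0.60.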

How the data were processed

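For retina the authors deposited RSEM expected counts without normalization, of which 11.5% were not whole, and these were rounded. RPE/choroid values are raw counts per gene as deposited. The authors also deposited a TMM-normalized signal table for retina, used to pair symbols with identifiers (928 by values, 16680 by the authors' RPE/choroid names) and to recover the reads of genes without an identifier. Their tables of fold changes and p-values were used for names only. The submitters' processing notes list Bowtie2 2.1.0, RSEM 1.2.15, edgeR and Rnor_6.0. Promoters are RefSeq windows on GRCr8.

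Each comparison used its own 6 libraries in edgeR 4.0.16 (R 4.3.3): filterByExpr, TMM, estimateDisp, glmQLFit with robust=TRUE, glmQLFTest, and Benjamini-Hochberg adjustment over all genes. SE is the absolute log2 fold change over the square root of F. CPM is a count scaled to the library total as adjusted by its TMM factor, so it differs from the count over the plain total. Members and lists were chosen with earlier results of these data known. Named genes are all members, all interferon ligands with a row, up to 4 called genes of the largest change per list and comparison or, with none, up to 2 of smallest p (given for some lists only), and 5 genes of most similar pattern (log2 with a pseudocount of 0.1). A small number of genes under this rule are left out here. Marker genes, Irf2 and the levels in 8-AG library 1 were named after their values were seen. Alternatives were RLE factors, DESeq2 1.42.0, no filter, counts not rounded, all groups in 1 fit, a replicate block, a rod covariate, label numbers summed, and leaving out each library. Scripts were tested on simulated data.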

Additional observations from a re-analysis of the deposited data

Results flagged for a closer look

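Gbp1 lies outside the tested table, since it has no identifier paired with it there, but the authors' normalized retina table gives it 7 reads in the aged libraries (1, 4 and 2) and 0 in the young and in the 8-AG libraries, above the 3 reads that a count of 0 over a group allows. The level was not tested.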

How the results depend on the processing

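Over 438 refits of single members, 424 kept their direction and their side of the threshold, 3 fell below it and 11 changed sign. These counts say nothing of stability, since the members were chosen for their difference from young retina and none was called in the other 4 comparisons. The 3 that fell below are Irf1 in 8-AG against young retina without a young library (log2 0.52 to 0.59). All 11 sign changes are in RPE/choroid, around differences that were not called. With libraries that share a label number summed, Irf1 was at -0.05 in aged against young and Igtp at -0.004 in 8-AG against young. As single libraries were left out, aged against young ranged from -0.09 to 0.62 for Igtp and from -0.04 to 0.40 for Irf1; 8-AG against aged from -0.24 to 0.19 for Gbp5, from -0.36 to 0.22 for Igtp and from -0.05 to 0.42 for Irgm; and 8-AG against young from -0.02 to 0.39 for Gbp5 and from -0.03 to 0.49 for Igtp. The cause was not tested. The count of all genes called moved more. In aged against young retina it was 2122, and 1333 and 1245 without young library 1 or 2. In 8-AG against aged retina it was 3, with 10 without the filter, 18 in DESeq2 and 0 to 1 when aged library 1 or 3 or 8-AG library 2 or 3 was left out. In 8-AG against young retina it was 2163, and 1026 to 1314 without any 1 young library or 1048 without 8-AG library 2. In RPE/choroid it was 0, with 29, 81 and 98 in DESeq2 and 1 with a rod covariate in aged against young.

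In no comparison were same-numbered libraries each other's closest match in all 3 pairs (correlations of their deviations from -0.62 to 0.66). The numbers were therefore not taken as pairing. With the number as a replicate block, 1697 of all genes were called in aged against young retina, 1932 in 8-AG against young and 0 in 8-AG against aged. RPE/choroid precision is limited by the spread between libraries, with a common dispersion of 0.195 to 0.396 against 0.0147 to 0.0215 in retina.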

Other observations

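In retina Klrd1, a receptor chain of NK cells, was at 14.4 to 27.1 CPM over the 9 libraries, while Cd3e, a chain of the T cell receptor complex, was at most 0.245 CPM. Prf1, the pore protein of cytotoxic cells, was at 4.72 CPM in aged retina library 2, the library with the highest Gbp2, against 0.468 and 0.138 in the other aged libraries, and at 1.71 in 8-AG library 2. Ciita went against the other targets in retina, at 21.5 to 23.5 CPM in young, 9.60 to 15.3 in aged and 10.6 to 14.9 in 8-AG libraries. These genes were singled out after their values were seen.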
